A study of Mus musculus with 32 samples.

Results

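The adult bone marrow libraries of mice that received doxycycline chow at 1250 ppm were compared with those of untreated wild-type control mice, as the labels assign them: 4 libraries (replicates 1, 3, 4 and 5) against 3 (replicates 1, 2 and 3), out of 17 adult libraries and 32 libraries in the series. The 1250 ppm mice carried Mx1-Cre, rTA and the transgene tgU2AF1(WT) together with U2af1(flox/S34F), and had been given polyinosinic-polycytidylic acid (pIpC) in 6 doses. The control mice carried the same Mx1-Cre, rTA and tgU2AF1(WT) but had U2af1(wt/wt), and received neither pIpC nor doxycycline. Genotype, pIpC and doxycycline therefore all differed at once between both groups and cannot be told apart. Both other adult groups had the genotype and the pIpC of the 1250 ppm mice with more doxycycline, at 2500 ppm (6 libraries) and 10000 ppm (4 libraries). All libraries came from sorted Lin- cKit+ Sca1- cells, a gate that holds myeloid and erythroid progenitors. The ages and sexes of the adult mice were not given in the sources used here, nor was a batch. Where nothing states that libraries came from separate mice, the p-values measure only the spread between these libraries.

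U2AF1 is the small subunit of the U2 auxiliary factor, which reads the AG dinucleotide at the end of an intron so that the U2 particle can be placed on the branch point. S34F is a substitution in a zinc finger that recurs in myelodysplastic syndromes and leukemia. In these mice pIpC, a double-stranded RNA analog that triggers an interferon response, switches on Cre from the Mx1 promoter, so that the floxed allele is removed and S34F is the remaining endogenous one. The Mx1 promoter answers to interferon in many cell types, not in blood cells alone. Doxycycline activates rTA, which drives the transgene of wild-type U2AF1, and 1250 ppm was the lowest of the 3 doses. Doxycycline itself also slows translation on mitochondrial ribosomes.

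Both groups were sequenced to a similar depth: wild-type libraries held between 50.2 and 58.3 M counts (M for 1000000) and those at 1250 ppm between 49.7 and 70.0 M. Values per library are counts per 1000000 counts (CPM) after scaling of library sizes, and differences are log2 fold changes of 1250 ppm over untreated wild type with their standard error (SE). U2af1 was not analysed here, so no count checked the genotype labels. Kit, the receptor that defines the sort, had 376 to 501 CPM at 1250 ppm and 477 to 596 CPM in the wild type. The untreated wild-type replicate 3 stood apart from the other 6 libraries in having no count of the Y-linked lincRNA Gm29650, against 32 to 51 counts in the others. All libraries at 2500 and 10000 ppm had counts of it too. A covariate for Y-linked reads, used below, therefore marks wild-type replicate 3 alone and is not a check separate from leaving that library out. The groups also differed in a property of the transcripts. The 3331 genes with the most GC-rich transcripts, minus the 3331 with the most GC-poor ones, deviated by -0.33, -0.25 and -0.21 (median log2 CPM against the mean of the adult libraries) in the wild type and by 0.22, -0.04, 0.15 and 0.29 in replicates 1, 3, 4 and 5 at 1250 ppm, so that the groups did not overlap. Counts are therefore given below also after a correction for GC content within each library. The 2500 ppm libraries, which shared genotype, pIpC and dose, lay on both sides. Replicates 1, 5 and 6 were at -0.24, -0.28 and -0.18, and replicates 2, 3 and 4 at 0.19, 0.255 and 0.21. The second principal component of the 1000 most variable genes split them alike, at 12.8 to 18.4 and -14.7 to -20.5. The 10000 ppm libraries ranged from -0.17 to 0.35 in GC. The shift was thus not particular to 1250 ppm, and its cause was not tested. Of the 145 genes named, 51 overlap a gene on the other strand and 32 overlap a gene on the same strand. Whether the authors' counting used strand is not given in the sources used here, so that reads of opposite-strand pairs cannot be told apart. For pairs on the same strand, strand would not separate the reads.

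**Figure D1:**
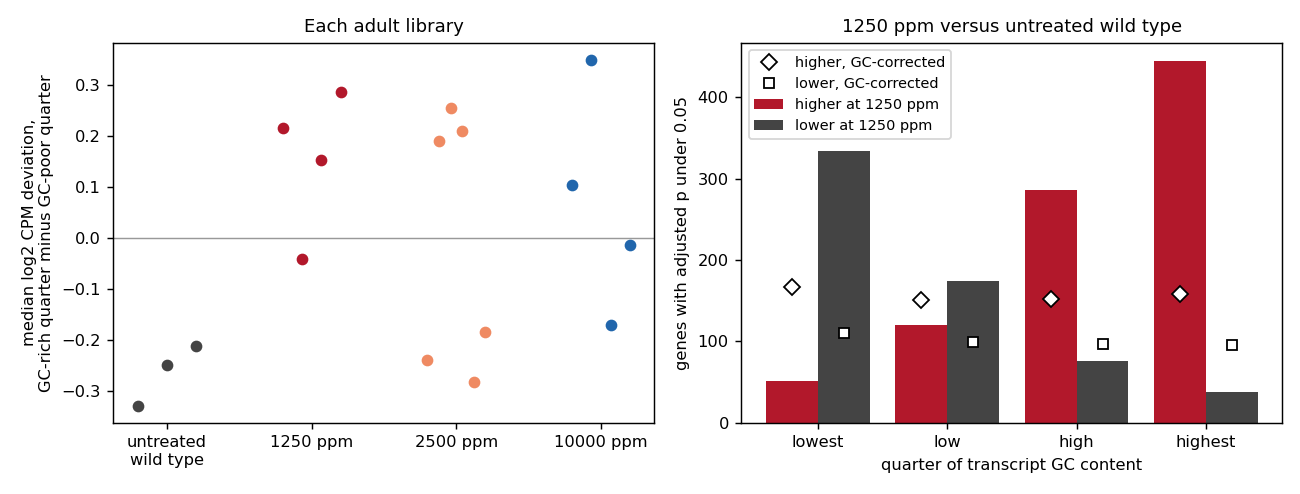
Left, each adult library as 1 point, with the median deviation of GC-rich minus GC-poor genes on the y axis (log2 CPM); the 3 untreated wild-type libraries sit from -0.33 to -0.21 and the 4 libraries at 1250 ppm from -0.04 to 0.29. Right, bars count the genes that passed in each of 4 GC classes of 3331 genes, from 51 higher and 334 lower in the lowest class to 445 higher and 38 lower in the highest, and white symbols give the counts after GC correction.

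Many genes differed between 1250 ppm and the untreated wild type, in both directions. With edgeR's quasi-likelihood test and Benjamini-Hochberg adjustment, 1524 (11.4%) of the 13338 genes had an adjusted p under 0.05. Of these, 902 (6.76%) were higher at 1250 ppm and 622 (4.66%) lower. These are the calls meant by "rose" and "fell" from here on. Without adjustment 4069 genes (30.5%) had a p under 0.05, where chance alone would give 666.9, and 455 called genes differed at least 2-fold, 299 upward and 156 downward. The 2 groups did not overlap in CPM for 4617 genes (34.6%), of which 2256 (16.9%) were higher and 2361 (17.7%) lower at 1250 ppm. With only the compared groups in the fit, 1484 genes were higher and 1622 lower, so that the larger share turned downward. After GC correction 1030 genes passed, 628 higher and 402 lower. The count varied with the library left out. It was 149 without wild-type replicate 1, 79 without wild-type replicate 2 (35 higher, 44 lower) and 1315 without wild-type replicate 3. At 1250 ppm it was 455 without replicate 1, 1482 without replicate 3, 902 without replicate 4 and 379 without replicate 5. Without wild-type replicates 1 and 2 in turn, 2936 and 3130 genes had an unadjusted edgeR p under 0.05, beside 4069 with all libraries.

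The genes with the smallest p in each direction had narrow groups. H2-Q4, a nonclassical class I histocompatibility gene whose reads can be shared with near-identical class I genes, stood at 76.2, 65.6, 73.6 and 88.4 CPM at 1250 ppm and at 156, 126 and 151 CPM in the wild type, so that every dosed library lay below every control. Its log2 fold change was -0.93 ± 0.12 (SE), with the smallest edgeR adjusted p of the comparison, 0.00578. Hip1, an endocytic adaptor of clathrin coats, went the other way, at 62.5, 58.6, 46.8 and 57.6 CPM against 29.98, 25.3 and 21.8 CPM in the wild type (1.13 ± 0.16). Nid2, a basement membrane protein, was at 13.8, 10.4, 10.1 and 14.0 CPM against 1.20, 1.24 and 2.999 CPM, a log2 fold change of 2.74 ± 0.39. Apbb2, a binding partner of the amyloid precursor protein, and Cgnl1, a junction protein, rose by 1.95 ± 0.28 and 3.18 ± 0.49 log2 units. Lower were also Idua, the lysosomal iduronidase (-0.60 ± 0.09), the zinc finger gene Zkscan4 (-2.74 ± 0.43), the helicase gene Ddx60 (-1.65 ± 0.25) and the noncoding Gm15987 (-2.31 ± 0.30). Each of these genes passed under every alternative setting in which they were tested, except a required 2-fold change, which H2-Q4 and Idua missed, and without each single library. Nid2, Apbb2, Zkscan4, Idua, H2-Q4 and Gm15987 overlap genes on the other strand.

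Among protein-coding genes, the largest rises held many genes of macrophages. Gpnmb, a membrane glycoprotein of phagocytes, was at 87.9, 25.1, 9.07 and 5.70 CPM in replicates 1, 3, 4 and 5 at 1250 ppm and at 0.265, 0.279 and 0.216 CPM in the wild type. It was far higher in each dosed library, although the dosed libraries differed widely among themselves, and its log2 fold change was 6.96 ± 1.20 (edgeR adjusted p = 0.00764). Of the 12 largest rises by the rule for named genes, 7 belonged to the macrophage list described below, and Gpnmb, Fcna, Cd4 and Hspb1 were also among them. Fcna, a lectin of the complement system, rose by 6.35 ± 1.58, and Hspb1, a small heat shock protein, by 4.42 ± 1.38 with an edgeR adjusted p of 0.0481. Hspb1 was uneven at 1250 ppm, with 0.0999 CPM in replicate 1 and 0.626 to 1.82 CPM in the others.

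The largest falls came from genes of several kinds. Chil3, a chitinase-like protein of neutrophil precursors and macrophages, was at 100.8, 157, 164 and 85.2 CPM at 1250 ppm and at 2029, 1102 and 374 CPM in the wild type (-3.20 ± 1.001, edgeR adjusted p = 0.0487). Cldn1, a tight junction protein, was at 0.117, 0.939, 0.368 and 0.0839 CPM against 13.02, 4.95 and 1.18 CPM. Sdc2, a heparan sulfate proteoglycan, was at 0.416, 0.868, 1.49 and 0.0210 CPM against 14.9, 14.2 and 1.71 CPM. In all 3 of these genes wild-type replicate 3 was the control library nearest to the dosed ones. Bmpr1a, a receptor for bone morphogenetic proteins, had close control values of 15.2, 15.2 and 14.8 CPM and stood at 0.533, 1.62, 3.02 and 1.28 CPM at 1250 ppm (-3.22 ± 0.96). Cdh1, which encodes E-cadherin, was at 1.38, 1.58, 1.84 and 1.01 CPM against 8.56, 6.67 and 3.39 CPM (-2.09 ± 0.37, edgeR adjusted p = 0.00836). Aspa, which deacetylates N-acetylaspartate, was at 0.216, 0.697, 0.669 and 0.168 CPM against 2.65, 2.18 and 2.39 CPM (-2.44 ± 0.45). The 12 largest falls were completed by Zkscan4, Pgr, Sncaip, St8sia6, Ifi209 and Fcer1a, from -1.94 to -2.74 log2 units. After GC correction Chil3, Cldn1, Sdc2, Bmpr1a and Pgr no longer passed, with edgeR adjusted p from 0.0584 to 0.0648. Of the 12 largest falls, Zkscan4, Aspa and Cdh1 passed under every alternative and without each single library.

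**Figure D2:**
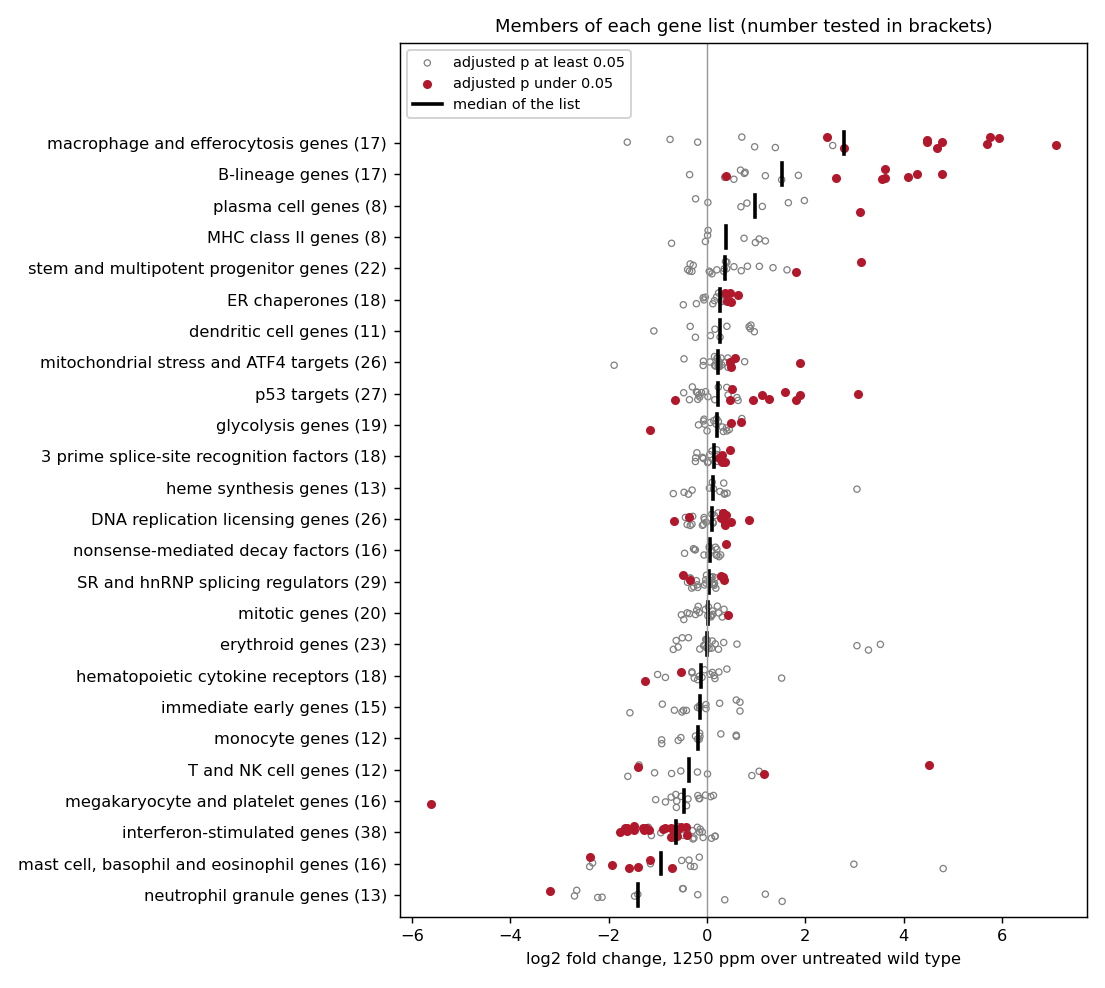
Each point is 1 gene of a list, placed by its log2 fold change of 1250 ppm over untreated wild type on the x axis; filled red points passed at an edgeR adjusted p under 0.05, and black bars mark each list's median. Medians of these pathway lists run from -1.41 for neutrophil granule genes to 2.80 for macrophage and efferocytosis genes.

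Interferon-stimulated genes were lower at 1250 ppm than in the untreated wild type. These genes are switched on when interferon receptors activate transcription factors that bind the interferon-stimulated response element (ISRE) in promoters. Of 38 members tested, 20 fell and none rose, with a list median of -0.63 log2 units, against a fall in 4.66% of all genes tested and a median of 0.0083 over all genes. To show what a match to this element looks like, the 250 bases before the RefSeq start site (GRCm38.p6) are given for 3 members that fell and were picked because they hold matches, Isg15, Ifit1 and Irgm1, read 5′ to 3′ on the strand of each gene, with capitals for a pair of GAAA repeats with any 2 bases between them, on either strand. Isg15 lies at chr4:156200819-156201068 on the minus strand, Ifit1 at chr19:34640639-34640888 on the plus strand and Irgm1 at chr11:48871421-48871670 on the minus strand.
Isg15: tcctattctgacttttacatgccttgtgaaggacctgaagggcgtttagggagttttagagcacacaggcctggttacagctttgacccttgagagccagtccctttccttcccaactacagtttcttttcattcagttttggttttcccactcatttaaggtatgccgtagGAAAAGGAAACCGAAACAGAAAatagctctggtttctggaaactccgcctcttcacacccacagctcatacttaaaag
Ifit1: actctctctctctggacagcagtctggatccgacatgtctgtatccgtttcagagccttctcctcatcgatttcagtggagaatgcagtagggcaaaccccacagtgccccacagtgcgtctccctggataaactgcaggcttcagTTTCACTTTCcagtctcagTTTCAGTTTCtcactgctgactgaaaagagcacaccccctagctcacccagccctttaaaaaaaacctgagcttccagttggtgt
Irgm1: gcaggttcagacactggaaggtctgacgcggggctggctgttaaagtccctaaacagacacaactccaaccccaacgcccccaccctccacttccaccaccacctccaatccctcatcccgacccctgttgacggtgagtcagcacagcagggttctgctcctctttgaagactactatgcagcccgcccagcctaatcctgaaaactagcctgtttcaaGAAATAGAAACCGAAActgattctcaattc

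Matches of this motif can overlap, as the 3 in Isg15 and the 2 in Irgm1 do. In the RefSeq windows of 250 bases before to 50 after the start, 13 of the 20 fallen members had an entry, and 6 of these 13 (46.2%) held a match. Of the 18 members that did not pass, 14 had an entry and 8 (57.1%) held a match. The share over all 27025 genes of the RefSeq table was 3.99%. A match is a description of letters and not a measured binding site.

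The sensors of foreign RNA were among the members that fell. Ddx58, which encodes the sensor RIG-I, was at 19.98, 24.97, 21.7 and 20.2 CPM at 1250 ppm and at 36.9, 40.4 and 43.9 CPM in the wild type (-0.89 ± 0.19, edgeR adjusted p = 0.0147). Ifih1, the sensor MDA5 of long double-stranded RNA, was at 32.2, 42.1, 42.2 and 40.0 CPM against 51.9, 61.5 and 82.6 CPM (-0.74 ± 0.14, edgeR adjusted p = 0.0105). Dhx58, a regulator of both sensors, had a log2 fold change of -0.73 ± 0.16. The groups did not overlap for any of these 3 genes.

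The transcription factors of the pathway fell in part. Irf9 was at 29.6, 33.9, 35.6 and 28.4 CPM against 52.3, 52.6 and 67.6 CPM (-0.85 ± 0.14, edgeR adjusted p = 0.00669). Stat2 had a log2 fold change of -0.15 ± 0.10 and did not pass (edgeR adjusted p = 0.32). Irf7, at -1.13 ± 0.40, did not pass either (edgeR adjusted p = 0.0734).

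Among the effectors, Oasl2, an oligoadenylate synthetase-like protein, was at 6.84, 8.27, 6.47 and 8.32 CPM at 1250 ppm and at 12.7, 18.4 and 23.4 CPM in the wild type (-1.28 ± 0.20, edgeR adjusted p = 0.00663). Xaf1, a pro-apoptotic protein, was at 2.51, 3.47, 3.14 and 2.12 CPM against 5.48, 7.32 and 7.19 CPM (-1.24 ± 0.20). Samd9l, a growth-restraining gene of blood progenitors, was at 18.9, 22.1, 18.3 and 16.4 CPM against 66.9, 49.0 and 60.1 CPM (-1.63 ± 0.42). For Isg15, a ubiquitin-like modifier, the wild-type libraries spread from 1.37 to 4.02 CPM and the dosed ones from 0.818 to 1.28 CPM (-1.29 ± 0.38, edgeR adjusted p = 0.0405), so that the groups only just separated. Ifit1, which binds uncapped RNA, likewise ranged from 1.02 to 2.92 CPM against 0.585 to 1.01 CPM. Trim30a, Irgm1, Tap1, Parp14, Cmpk2, Zbp1, Oas2 and Mx2 fell by 0.40 to 1.76 log2 units without overlap, and Ifi44 and Rtp4 fell with overlapping groups. Of the abundant members, Ly6e and Psmb8 had log2 fold changes of -0.14 ± 0.13 and 0.17 ± 0.12 and did not pass.

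**Figure D3:**
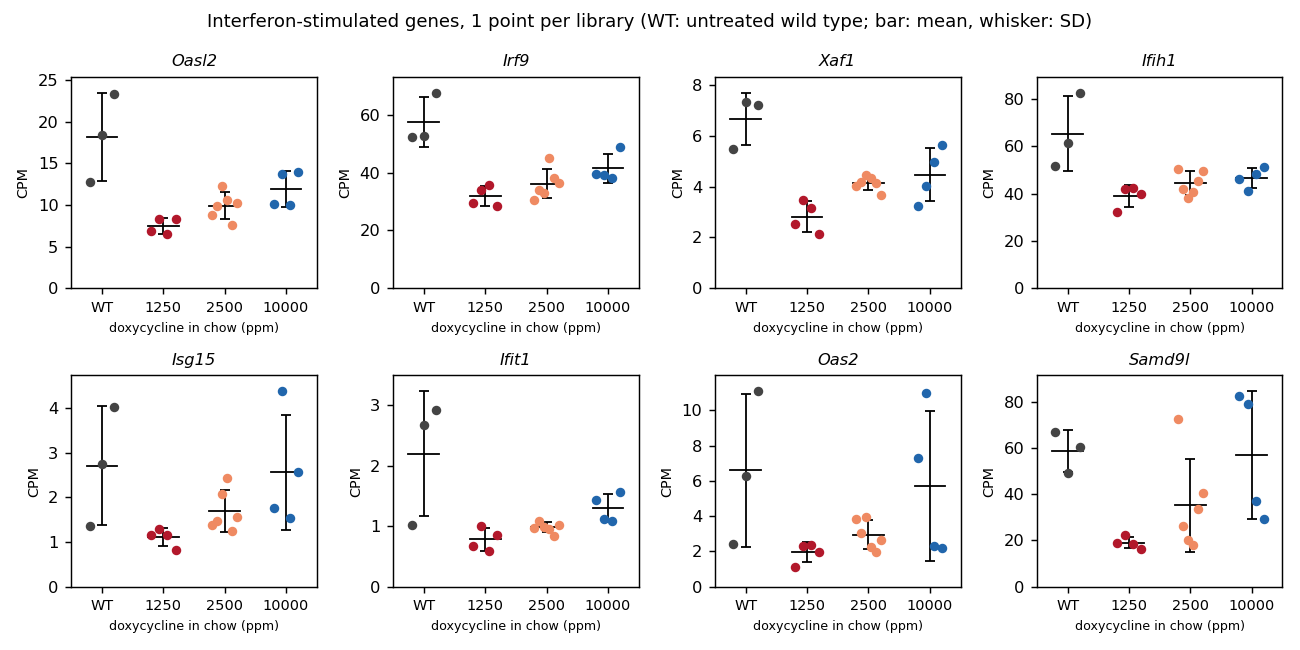
CPM of 8 interferon-stimulated genes (y axes, starting at 0) in the untreated wild type and at the 3 doses (x axes), with 1 point per library, bars for means and whiskers for SD. Oasl2 lies from 6.47 to 8.32 CPM at 1250 ppm and from 12.7 to 23.4 CPM in the wild type; Samd9l spreads widely at 2500 and 10000 ppm.

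Against 10000 ppm, a comparison that shares the 1250 ppm libraries, 12 of the 38 members were lower at 1250 ppm and 1 was higher (percent called over all genes 18.1%, with 7.53% lower). Against 2500 ppm none passed in either direction with edgeR (percent called over all genes 1.91%, with 1.36% higher and 0.547% lower), and 8 had an unadjusted p under 0.05, as 20.7% of all genes did. Bst2, encoding tetherin, was the member that was higher than at 10000 ppm (0.57 log2 units, edgeR adjusted p = 0.0193). After GC correction 17 members fell against the wild type. The count was 4 without wild-type replicate 2, 10 without wild-type replicate 1, 12 without wild-type replicate 3, 10 without replicate 1 at 1250 ppm, 9 without replicate 4 and 11 without replicate 5. Ddx60, which is an interferon-induced helicase outside the list, Oasl2, Irf9, Xaf1 and Ifih1 passed without each single library.

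Targets of the tumor suppressor p53 rose in part. p53 is stabilised by DNA damage and other stress and drives genes that arrest the cell cycle or start apoptosis. Of 27 members tested, 9 rose and 1, Ddb2, fell, with a list median of 0.23, against a rise in 6.76% of all genes. Phlda3, an inhibitor of AKT signalling, was at 9.41, 6.89, 7.89 and 4.53 CPM at 1250 ppm and at 0.876, 0.453 and 1.24 CPM in the wild type (3.07 ± 0.51, edgeR adjusted p = 0.00732). Cdkn1a, which encodes the cell cycle inhibitor p21, was at 46.5, 34.5, 34.1 and 38.4 CPM against 20.8, 15.9 and 16.5 CPM (1.11 ± 0.31, edgeR adjusted p = 0.0338). Zmat3, an RNA-binding effector of p53, was at 28.7, 32.0, 30.5 and 23.6 CPM against 7.54, 5.28 and 15.996 CPM (1.58 ± 0.41). In each of these 3 genes every dosed library was above every control library.

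Other targets that passed included receptors and effectors of apoptosis. Tnfrsf10b, the receptor of the death ligand TRAIL, was at 9.61, 8.49, 8.27 and 10.9 CPM against 2.83, 3.42 and 5.39 CPM (1.26 ± 0.30), and Eda2r, another receptor of that family, rose by 1.82 ± 0.53. Bax, which permeabilises mitochondria, was at 67.3, 57.3, 59.2 and 69.2 CPM against 39.0, 40.5 and 53.6 CPM (0.51 ± 0.14, edgeR adjusted p = 0.0297), and after GC correction it no longer passed (0.19, edgeR adjusted p = 0.29). Gdf15, a stress cytokine, Dglucy and Gtse1 rose by 1.89 ± 0.58, 0.93 ± 0.24 and 0.47 ± 0.12. Other well-known targets did not pass: Mdm2, the ligase that degrades p53, had -0.11 ± 0.14, and Pmaip1, encoding NOXA, was at 38.9 to 66.9 CPM against 14.2, 29.0 and 119 CPM. Ddb2, a DNA repair sensor, fell to 7.04, 7.08, 7.29 and 7.95 CPM from 14.4, 10.5 and 9.90 CPM (-0.66 ± 0.19).

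Against 10000 ppm, 7 p53 targets were higher and 4 lower at 1250 ppm, beside 10.6% and 7.53% of all genes. Against 2500 ppm 1, Gtse1, was higher and none lower, beside 1.36% and 0.547% of all genes. In that comparison 12 of the 27 had an unadjusted p under 0.05, beside 20.7% of all genes. Phlda3 was higher at 1250 ppm than at 10000 ppm by 1.73 log2 units (edgeR adjusted p = 0.0136), with means of 7.18 CPM at 1250 ppm, 3.60 CPM at 2500 ppm and 2.15 CPM at 10000 ppm. Against 2500 ppm its difference of 0.99 did not pass (edgeR adjusted p = 0.145). After GC correction 8 targets were higher than in the wild type and none lower. Of the rises, 1 was left without wild-type replicate 1, 1 without wild-type replicate 2, 2 without replicate 1 at 1250 ppm and 1 without replicate 5; Phlda3 passed in each of these fits.

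**Figure D4:**
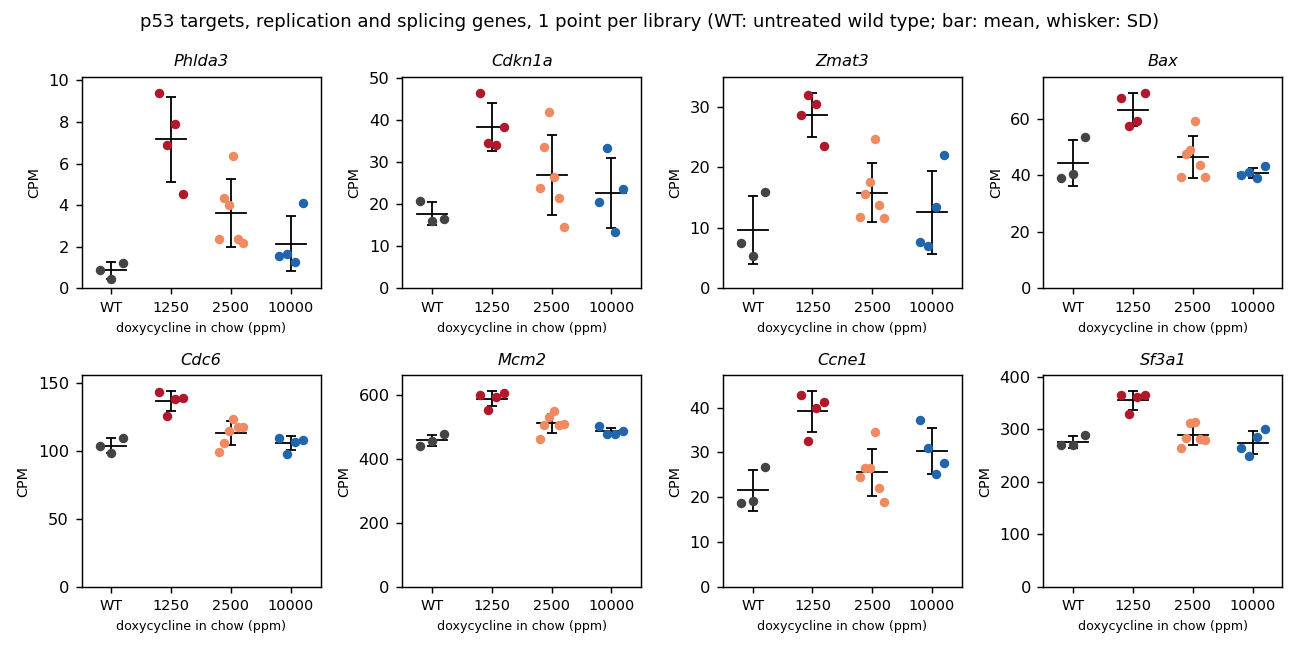
CPM of 4 p53 targets (top) and of Cdc6, Mcm2, Ccne1 and Sf3a1 (bottom) on y axes that start at 0, by group, with 1 point per library, bars for means and whiskers for SD. Phlda3 lies from 4.53 to 9.41 CPM at 1250 ppm and from 0.453 to 1.24 CPM in the untreated wild type.

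Of 17 genes of tissue macrophages tested, 10 were higher and none lower, beside 6.76% of all genes higher, with a median of 2.80 log2 units, the largest of the 25 pathway lists tested. Bone marrow macrophages engulf dying cells and expelled erythroid nuclei, and recognise them through MERTK, AXL and the bridging ligand GAS6. In bulk RNA, more cells of a type and more RNA per cell cannot be told apart. Mertk was at 7.74, 2.52, 0.685 and 1.24 CPM in replicates 1, 3, 4 and 5 at 1250 ppm and at 0.0408, 0.122 and 0 CPM in the wild type (5.71 ± 1.20, edgeR adjusted p = 0.0135). Gas6 was at 4.10, 1.95, 0.685 and 1.19 CPM against 0.102, 0.105 and 0 CPM (4.79 ± 1.10), and Axl at 25.9, 14.2, 6.79 and 5.97 CPM against 1.63, 2.86 and 2.82 CPM (2.44 ± 0.76). No dosed library reached down to a control library in these 3 genes, and replicate 1 was the highest in each.

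Complement and scavenger genes were likewise highest in replicate 1 at 1250 ppm. C1qa, C1qb and C1qc, the chains of the complement component that marks debris, rose by 4.47 ± 1.19, 4.69 ± 1.16 and 4.48 ± 1.20. C1qb was at 17.6, 8.19, 2.77 and 2.73 CPM against 0.0815, 0.331 and 0.490 CPM. Cd5l, a secreted scavenger protein, was at 24.4, 7.07, 1.54 and 1.72 CPM against 0.0408, 0.174 and 0.196 CPM (5.95 ± 1.43), and Siglec1, the sialic acid receptor CD169 of resident macrophages, at 15.2, 6.39, 1.79 and 1.93 CPM against 0.0815, 0.122 and 0.137 CPM (5.77 ± 1.24). Hmox1, which breaks down heme, was at 41.9, 14.0, 7.50 and 7.25 CPM against 2.45, 3.07 and 2.12 CPM (2.80 ± 0.72). Vsig4, a complement receptor, had no count in any wild-type library and was at least 5.34-fold higher at 1250 ppm, against a floor of 3 counts per library; with this bound in place of its fitted value the list median is 2.56.

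Not all genes of the list moved upward. Vcam1, an adhesion molecule of macrophages that progenitors and stroma also make, was at 94.9, 103, 156 and 122 CPM against 326, 340 and 432 CPM, a log2 fold change of -1.62 ± 0.52 that did not pass (edgeR adjusted p = 0.0536). Adgre1, the F4/80 antigen, was at 9.94, 10.5, 6.63 and 6.33 CPM against 13.2, 11.1 and 4.35 CPM. Slc40a1, the iron exporter, was at 57.2 to 71.9 CPM against 90.9 to 128 CPM and did not pass. Because these genes are abundant, the summed CPM of the list was 259.6 to 405 at 1250 ppm and 489 to 557 in the wild type, in the opposite direction to the median of the log2 fold changes.

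**Figure D5:**
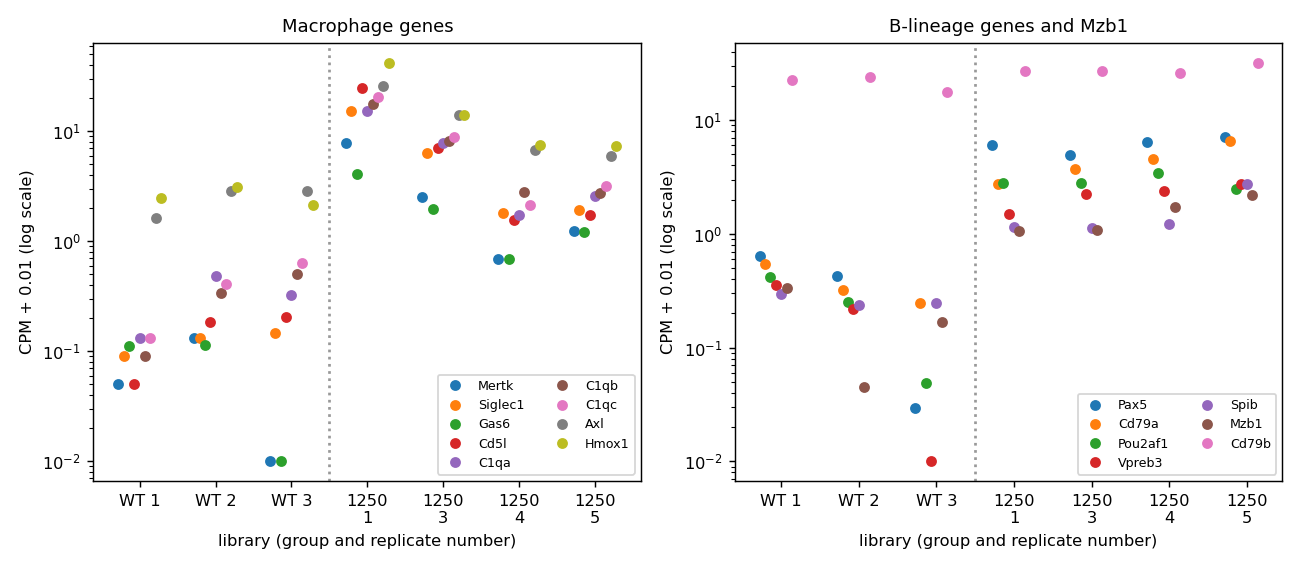
CPM plus 0.01 on a log scale for 9 macrophage genes (left) and for 6 B-lineage genes with Mzb1 (right) in each of the 3 untreated wild-type and 4 dosed libraries (x axis). Macrophage genes are highest in replicate 1 at 1250 ppm (Cd5l 24.4 CPM) and lowest in the wild type, and the B-lineage genes vary less among the dosed libraries.

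None of the 17 macrophage genes passed with edgeR between 1250 ppm and either higher dose, and 1 had an unadjusted p under 0.05 in each of these comparisons, beside 20.7% of all genes against 2500 ppm and 32.7% against 10000 ppm; the group means of Mertk were 3.05 CPM at 1250 ppm, 3.52 CPM at 2500 ppm and 2.88 CPM at 10000 ppm. The rises in the list numbered 9 after GC correction, 3 without replicate 1 at 1250 ppm and 5 without wild-type replicate 3. They numbered 6 with the presence of Y-linked reads as a covariate, which marks that same wild-type library alone. Without wild-type replicate 1 or replicate 2 there were none, and without replicate 1 at 1250 ppm the median fell to 1.91. Gpnmb, which is not in the list, passed in each of these fits. Mature erythroid markers were likewise highest in replicate 1: Hbb-bt, whose reads can be shared with near-identical globin genes, and Slc4a1, the anion exchanger of red cells, summed to 31.1, 4.25, 4.09 and 2.26 CPM in replicates 1, 3, 4 and 5 at 1250 ppm against 1.59, 0.697 and 0.765 CPM. Both had an unadjusted p under 0.05 and neither passed, and their part in the result was not tested.

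B-lineage genes were higher at 1250 ppm, at low levels. Of 17 members tested 8 rose and none fell, beside 6.76% of all genes higher, with a median of 1.52 log2 units. Pax5, the transcription factor that commits cells to the lineage, was at 6.06, 4.98, 6.42 and 7.04 CPM at 1250 ppm and at 0.632, 0.418 and 0.0196 CPM in the wild type (4.10 ± 0.88). Cd79a, a signalling chain of the B-cell receptor, was at 2.76, 3.74, 4.58 and 6.60 CPM against 0.530, 0.314 and 0.235 CPM (3.62 ± 0.80). The groups were well apart in both genes, and wild-type replicate 3 had the lowest value of each.

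Pou2af1, a B-cell coactivator, Vpreb3 and Spib rose by 3.63 ± 0.82, 3.56 ± 0.92 and 2.63 ± 0.71. Cd79b, the partner chain of Cd79a, changed far less, at 27.2, 26.9, 26.2 and 32.1 CPM against 22.4, 24.0 and 17.7 CPM (0.39 ± 0.12), and its call was lost in 15 of 17 alternatives, among them RLE factors. Vpreb2, a surrogate light chain, had at most 1 count in a wild-type library and was at least 2.84-fold higher at 1250 ppm. With Vpreb2 and Ms4a1 at their bounds the list median is 1.51. Ms4a1, which encodes CD20 of later B cells, had no count in 3 of the 4 dosed libraries. Dntt and Il7r of lymphoid progenitors had log2 fold changes of 1.86 ± 0.69 and 1.52 ± 0.62 and did not pass.

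Of 8 plasma cell genes 1 rose, beside 6.76% of all genes: Mzb1, a chaperone of antibody-secreting and innate-like B cells (3.12 ± 0.90). The median of these 8 was 0.97, 7 had a positive sign and DESeq2 passed 4. Without overlap 4 were higher, beside 16.9% of all genes, and 6 had an unadjusted p under 0.05, beside 30.5%. Of 12 T and NK cell genes Cd4 and Lck rose and Gzmb fell, beside 6.76% and 4.66% of all genes. Cd4, which macrophages and dendritic cells can also carry, was at 4.49, 1.39, 0.334 and 0.273 CPM against 0.0815, 0.122 and 0 CPM, with replicate 1 the highest, as in the macrophage genes. Neither the 8 MHC class II genes nor the 11 dendritic cell genes held a member that passed with edgeR. At an unadjusted p under 0.05 there were 1 and 0, beside 30.5% of all genes, and DESeq2 passed 1 and 0. Cd74, the class II invariant chain, was at 77.8, 51.8, 24.99 and 91.8 CPM against 56.6, 14.9 and 9.70 CPM. The B-lineage rises numbered 7 after GC correction, 5 without replicate 1 and 4 without replicate 5 at 1250 ppm, 2 without wild-type replicate 1, 4 without wild-type replicate 3 and 0 without wild-type replicate 2. Against 10000 ppm 1 B-lineage gene, Ms4a1, was lower at 1250 ppm, a share near the 7.53% of all genes that were lower. There 4 of the 17 had an unadjusted p under 0.05, beside 32.7% of all genes. Against 2500 ppm none passed with edgeR, beside 1.91% of all genes, and 0 had an unadjusted p under 0.05, beside 20.7%.

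Of 16 mast cell, basophil and eosinophil genes tested, 6 were lower at 1250 ppm and none higher, beside 4.66% of all genes lower, and the median was -0.93. These lineages arise from progenitors within the sorted gate and share the high-affinity IgE receptor. Ms4a2, its beta chain, was at 9.29, 11.3, 7.44 and 5.14 CPM at 1250 ppm and at 24.7, 27.5 and 22.2 CPM in the wild type (-1.58 ± 0.27, edgeR adjusted p = 0.00764). Fcer1a, its alpha chain, was at 3.71, 4.45, 1.70 and 1.61 CPM against 11.5, 12.9 and 8.72 CPM (-1.94 ± 0.38). Siglecf, a sialic acid receptor of eosinophils, was at 30.5, 37.3, 40.2 and 35.4 CPM against 64.0, 58.7 and 52.5 CPM (-0.71 ± 0.15). The groups did not overlap in these 3 genes.

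Cpa3, the mast cell carboxypeptidase, fell by 1.15 ± 0.32 although replicate 3 at 1250 ppm, with 43.6 CPM, lay above wild-type replicate 3, with 39.8 CPM. Gzmb and Il6, which other cells also make, fell by 1.41 ± 0.33 and 2.38 ± 0.53. The eosinophil granule genes Prg2 and Prg3 had log2 fold changes of -2.33 ± 0.82 and -2.39 ± 0.80 that did not pass (edgeR adjusted p of 0.0709 and 0.0612), with 67.0 to 153 CPM for Prg2 at 1250 ppm against 437 to 614 CPM. The mast cell proteases Cma1 and Tpsb2 stood the other way, with 2.54 to 17.3 CPM for Tpsb2 at 1250 ppm against 0 to 0.882 CPM, and did not pass. In this list, 3 members were lower than at 10000 ppm, beside 7.53% of all genes, and none passed against 2500 ppm, where 1 had an unadjusted p under 0.05. After GC correction 5 members were lower than in the wild type; 2 were left without wild-type replicate 1 and 1 without wild-type replicate 2, and Ms4a2 passed in each of these fits.

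Of 18 factors tested that take part in recognition of the 3′ splice site, the step in which U2AF1 works, 5 rose by small amounts and none fell, beside 6.76% of all genes higher. The other 13 did not pass, 5 of the 18 had a negative sign, and the median was 0.14. Sf3a1, Sf3a2 and Sf3a3 are the subunits of SF3A, which joins the U2 particle. Sf3a1 was at 365, 328, 361 and 364 CPM at 1250 ppm and at 269.9, 269 and 289 CPM in the wild type (0.36 ± 0.08, edgeR adjusted p = 0.0147). Sf3a2 and Sf3a3 rose by 0.46 ± 0.10 and 0.31 ± 0.09, Puf60, a homolog of the large U2AF subunit, by 0.31 ± 0.07 and Sf3b2, of the SF3B complex, by 0.25 ± 0.07. These differences are close in size to the shift with GC content: after GC correction 2 members passed, and Sf3a2 (0.17, edgeR adjusted p = 0.226), Puf60 and Sf3b2 did not. No member passed without wild-type replicate 1 (median 0.09) or replicate 2, 3 did without replicate 1 or replicate 4 at 1250 ppm and 2 without replicate 5.

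SR proteins and hnRNPs bind exons and introns to set splice-site choice. Of 29 tested, 3 rose and 2 fell, shares not far above the 6.76% and 4.66% of all genes, and the median was 0.05. Srsf9, Ptbp1 and Srsf1 rose by 0.35 ± 0.08, 0.32 ± 0.08 and 0.28 ± 0.09. Rbm5 and Srsf5 fell by 0.35 ± 0.08 and 0.48 ± 0.15. After GC correction Rbm5, Srsf5 and Ptbp1 no longer passed, and 6 members of the list were higher and none lower. Without wild-type replicate 1, wild-type replicate 2 or replicate 5 at 1250 ppm no member passed, without replicate 1 at 1250 ppm 1 was lower, and without replicate 3 or replicate 4 2 were higher and 1 lower. Of 16 factors of nonsense-mediated decay, which removes transcripts with early stop codons, 1 passed, Eif4a3 of the exon junction complex (0.39 ± 0.08, edgeR adjusted p = 0.0123), a share near the 6.76% of all genes that were higher.

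Genes that license replication origins rose in part. Of 26 tested, 9 rose and 2 fell, beside 6.76% and 4.66% of all genes, with a median of 0.11. Of the MCM helicase that unwinds DNA, Mcm2 was at 601, 553, 594 and 605 CPM against 441, 456 and 477 CPM (0.36 ± 0.07, edgeR adjusted p = 0.00899), and Mcm3, Mcm5 and Mcm7 rose by 0.36 ± 0.07, 0.29 ± 0.07 and 0.32 ± 0.06. Cdc6 and Cdt1, which load the helicase, rose by 0.40 ± 0.08 and 0.32 ± 0.07, and Gins2 and Mcm10, which activate it, by 0.49 ± 0.09 and 0.32 ± 0.09. Ccne1, cyclin E, was at 42.7, 32.5, 39.9 and 41.3 CPM against 18.7, 19.0 and 26.8 CPM (0.86 ± 0.19), the largest rise of the list. Dbf4, the activator of the CDC7 kinase, and Orc4, of the origin recognition complex, fell by 0.36 ± 0.11 and 0.67 ± 0.21. After GC correction 9 members passed, all higher, and neither Dbf4 (-0.06, edgeR adjusted p = 0.579) nor Orc4 did.

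Among 20 mitotic genes tested 1, Cdc20, was higher (0.42 ± 0.10) and none lower, a share near the 6.76% of all genes that were higher. At an unadjusted p under 0.05 there were 9, beside 30.5% of all genes. Without overlap 6 were higher and 6 lower, beside 16.9% and 17.7% of all genes. Mki67 and Top2a had log2 fold changes of -0.21 ± 0.12 and -0.16 ± 0.12 that did not pass. Against 10000 ppm 12 licensing genes were higher at 1250 ppm and none lower, beside 10.6% of all genes higher, and against 2500 ppm 1, Cdc6, was higher (0.27, edgeR adjusted p = 0.0465). Against the wild type the licensing list held 3 calls without wild-type replicate 1, 2 without wild-type replicate 2 and 6 without replicate 5 at 1250 ppm. Gins2 and Mcm3 passed in each of these fits.

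Of 18 chaperones of the endoplasmic reticulum 5 rose and none fell, beside 6.76% of all genes higher, with a median of 0.27. Hyou1, an Hsp70-type chaperone, was at 1198, 1159, 1143 and 1486 CPM against 807, 887 and 963 CPM (0.49 ± 0.12, edgeR adjusted p = 0.0202), and Creld2, Manf, Calr and Dnajb11 rose by 0.64 ± 0.16, 0.47 ± 0.13, 0.41 ± 0.12 and 0.37 ± 0.11. Replicate 5 had the highest value of these 5 genes. After GC correction 4 chaperones passed, among them Hyou1 and Calr but not Creld2, Manf or Dnajb11 (edgeR adjusted p of 0.061, 0.0574 and 0.0748), and with the replicate block none passed. Without replicate 5 no chaperone passed and the median was 0.16, and none passed without wild-type replicate 1 or 2; 1 passed without replicate 1 and 3 without wild-type replicate 3. Against 10000 ppm 15 of the 18 were higher at 1250 ppm, beside 10.6% of all genes.

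Among 26 genes induced by mitochondrial stress or by ATF4, the transcription factor of the integrated stress response, 4 rose and none fell, beside 6.76% of all genes higher. Lonp1 and Clpp, proteases of the mitochondrial matrix, rose by 0.48 ± 0.09 and 0.47 ± 0.13, Shmt2, of mitochondrial folate metabolism, by 0.57 ± 0.15, and Gdf15 as given above. After GC correction 1 of these 26 passed, with Shmt2 at 0.38 (edgeR adjusted p = 0.0979), and with the presence of Y-linked reads as a covariate 11 passed. None passed without wild-type replicate 1 or 2, 1 without replicate 1 or replicate 5 at 1250 ppm, and 9 without wild-type replicate 3. The covariate marks only this last library. Of 19 glycolysis genes, beside 6.76% and 4.66% of all genes higher and lower, Tpi1 and Pfkl rose by 0.50 ± 0.09 and 0.70 ± 0.13, and Ldhb fell by 1.17 ± 0.33, at 15.6, 19.1, 23.5 and 17.9 CPM against 42.5, 49.1 and 36.6 CPM. Mitochondrially encoded genes of the list were not analysed here.

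Most genes of the progenitors' own lineages did not pass. None of 23 erythroid genes, 13 heme synthesis genes, 12 monocyte genes or 15 immediate early genes passed with edgeR. At an unadjusted p under 0.05 there were 4, 4, 2 and 3 in that order, beside 30.5% of all genes, and DESeq2 passed 0, 0, 2 and 3. Erythroid values spread within both groups: Car1, carbonic anhydrase of erythroid progenitors, was at 198, 211, 312 and 130.4 CPM against 182, 163 and 615 CPM, with wild-type replicate 3 the highest. Mpo, the granule enzyme of myeloid progenitors, was at 23156, 23511, 27681 and 28692 CPM against 29814, 32994 and 25242 CPM, and did not pass. Of 13 neutrophil granule genes only Chil3 fell, beside 4.66% of all genes lower. The median of -1.41 rested on wild-type replicate 1, without which it was -0.52, and with the replicate block it was -0.24. The 4 mature neutrophil markers tested, Ltf, Camp, Ngp and Mmp8, had a median of -2.44 and none passed, with Camp, an antimicrobial granule peptide, at 147 to 180.2 CPM at 1250 ppm against 2061, 839.8 and 249.6 CPM. Against 10000 ppm 8 of the 13 granule genes were lower and 1 was higher, beside 7.53% and 10.6% of all genes.

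Of 16 megakaryocyte and platelet genes 1 fell, Thbs1, a share near the 4.66% of all genes that were lower. Its groups overlapped, at 3.75, 2.28, 9.18 and 1.13 CPM against 8.81, 550 and 43.1 CPM. Against 10000 ppm 11 of the 16 were lower, beside 7.53% of all genes. Of 22 stem and multipotent progenitor genes 2 rose and none fell, a share near the 6.76% of all genes that were higher. Cdkn1c, the cell cycle inhibitor p57, was at 12.2, 5.02, 3.99 and 2.08 CPM against 0.673, 0.627 and 0.686 CPM (3.13 ± 0.67), and Procr, the protein C receptor of stem cells, rose by 1.82 ± 0.39. Of 18 cytokine receptors 2 fell and none rose, beside 4.66% of all genes lower. The interferon gamma receptor chain Ifngr1 was at 407, 422, 467 and 473 CPM against 574, 701 and 642 CPM (-0.53 ± 0.14), and Il5ra, the interleukin-5 receptor of eosinophils, fell by 1.26 ± 0.36. As a check for stroma, Col1a1 was at 2.76 to 5.51 CPM against 0.436 to 0.489 CPM and passed, the 1 of 6 stromal and endothelial markers that did, while Pecam1, Col1a2, Col3a1, Cdh5 and Lepr did not. The part of such other cells in the results was not tested.

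The same genes were then compared with the higher doses. Of the 902 genes that were higher at 1250 ppm than in the wild type, 137 were also higher than at 2500 ppm and none lower, and 532 were higher than at 10000 ppm and 2 lower. Of the 622 lower genes, 51 were lower than at 2500 ppm and none higher, and 231 were lower than at 10000 ppm and none higher. Over all genes, 1.36% were higher and 0.547% lower than at 2500 ppm, and 10.6% higher and 7.53% lower than at 10000 ppm. All of these comparisons share the 1250 ppm libraries, so that these counts are not independent of the first comparison. The choice of genes by their 1250 ppm values itself favours the same direction against the other doses. Nid2 is an example with a fall towards the control level, with means of 12.1 CPM at 1250 ppm, 6.33 CPM at 2500 ppm, 2.77 CPM at 10000 ppm and 1.81 CPM in the wild type, and a difference between 1250 and 10000 ppm of 2.12 log2 units (edgeR adjusted p = 0.00304). Gpnmb had means of 32.0, 43.8 and 36.2 CPM at 1250, 2500 and 10000 ppm, and no difference between doses passed. The count against 2500 ppm was unstable: 255 genes passed over all libraries, 0 without any 1 of replicates 1, 4 or 5 at 1250 ppm, and 924 without replicate 4 at 2500 ppm.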

How the data were processed

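RNA of sorted progenitors was sequenced after depletion of ribosomal RNA, per the labels' protocols, and the authors deposited raw whole-number counts per Ensembl gene for 27728 genes and 32 libraries. The reads had been mapped with HISAT2 2.1.0 to GRCm38, per the labels' design text; the counting tool and its use of strand are not given in the sources used here. The 4 libraries at 1250 ppm were tested against the 3 untreated wild-type libraries, and against the 2500 and 10000 ppm libraries, in 1 model of the 17 adult libraries with edgeR 4.0.16 (R 4.3.3): filterByExpr, TMM scaling, the quasi-likelihood test and Benjamini-Hochberg adjustment over all 13338 genes tested, at an adjusted p under 0.05. Values per library are CPM after TMM scaling, log2 CPM used a prior count of 2, and SE is the absolute log2 fold change over the root of F. Folds against libraries with no more than 3 counts are bounds at that floor, which covers counting error only.

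Symbols and coordinates are those of GENCODE M21 (GRCm38), and promoters those of RefSeq GRCm38.p6. Members and lists were chosen with earlier results of these data known, and lists are described by counts and medians with no set test. Named genes are the 12 largest rises and falls among protein-coding genes, the 3 largest each way among other biotypes and the 5 smallest p each way, where groups do not overlap and the higher one averages 50 counts or more, besides list members that passed, or the 2 with the most counts where fewer than 2 passed; others were named after their values were seen, and a few genes are not reported here. Replicates of a group differed by more than counting error, by 23.9 to 110 times in chi-square over its degrees of freedom. Tested on simulated counts for this comparison (13338 genes), edgeR recovered 79% of 100 genes changed 2-fold and 95% of 100 changed 4-fold, with 8 false calls. The changed genes were drawn from those that averaged 50 counts or more. Each gene was simulated independently, with no GC shift and no effect shared by the genes of a library. The 8 false calls therefore do not measure the error of the real comparison.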

Additional observations from a re-analysis of the deposited data

Results flagged for a closer look

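At 1250 ppm, 12 of the 145 named genes had 1 of the 4 libraries farther from the others than Dixon's 95% limit for its gap over the range, where chance alone gives about 1 in 20. In replicate 3, Snord34 (0.256 CPM, others 0 to 0.0167), Gm24497 (1.14 CPM) and Ddx60 (4.50 CPM, others 3.75 to 3.796) were high and Sf3a1 (328 CPM, others 361 to 365) was low. In replicate 4, Dglucy was low (37.2 CPM) and Vpreb2 high (0.334 CPM). In replicate 5, Spib (2.75 CPM, others 1.12 to 1.20), Cd79b (32.1 CPM), Lck (7.42 CPM), Sf3a3 (150.6 CPM) and Hyou1 (1486 CPM) were high and H2-DMa (57.3 CPM, others 69.0 to 71.5) was low. No gene was marked in replicate 1, although the macrophage genes were highest there. The high value of Ddx60 lies towards the wild type, and those of Spib, Cd79b, Lck, Sf3a3 and Hyou1 lie away from it.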

How the results depend on the processing

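All 125 named genes that passed kept their direction under every alternative. They were chosen because they passed with these same libraries, so that a kept direction says little about stability. Of the 125, 22 passed in each alternative that tested them and without each single library (a required 2-fold change aside). With all 7 libraries 44 passed in each alternative, 57 with the replicate block, 90 after GC correction (an alternative chosen after seeing the data) and 73 at 2-fold. Against the wild type 2521 genes passed with DESeq2, 702 without a filter on low counts, 455 at 2-fold, 3106 with only the compared groups in the fit (1484 higher, 1622 lower) and 438 with the replicate block; leaving out 1 library gave 79 to 1482. Against 2500 ppm 1106 passed with DESeq2, 153 with RLE factors, 134 without genes over 1% of a library, 0 without a filter on low counts, 0 with the replicate block, 463 with Y-linked reads as a covariate, 0 without chromosomes X and Y, 397 after GC correction and 29 at 2-fold; leaving out 1 library gave 0 to 924. Against 10000 ppm 654 passed at 2-fold, 1533 without a filter, 997 with only the compared groups and 1184 with the replicate block; leaving out 1 library gave 801 to 2833. Replicate numbers 1 and 3 are shared by both groups, but equal numbers did not deviate together (r of 0.01 and -0.12), so the block is not read as pairing. With the replicate block the calls were 6 interferon-stimulated genes, 5 p53 targets, 2 mast cell, basophil and eosinophil genes and 4 licensing genes (median 0.06). With Y-linked reads as a covariate, which marks wild-type replicate 3 alone, they were 10 interferon-stimulated, 4 B-lineage and 6 macrophage genes. The p53 median was then 0.54. Without a filter 6 p53 targets and 6 licensing genes passed. With a mean of at least 50 counts the mast cell list's median was -0.61, and without chromosomes X and Y the licensing median was 0.0754. Leaving out 1 library gave 4 to 16 interferon-stimulated genes, 1 to 9 p53 targets (median 0.19 to 0.52), 0 to 7 B-lineage genes (median 1.05 to 2.35), 0 to 9 macrophage genes (median 1.91 to 3.05), 1 to 6 mast cell genes and 2 to 10 licensing genes (median 0.0595 to 0.12). The SR and hnRNP median of 0.05 turned to -0.0114 with the replicate block and ranged from -0.0089 (without replicate 5 at 1250 ppm) to 0.0515 with 1 library left out. The cause of these changes was not tested, other than that leaving out a library leaves fewer samples.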

Other observations

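Small noncoding RNA genes are a group that the comparison above did not describe; the counts by biotype were looked at after the values were seen. Of 42 snoRNA genes tested, which guide the modification of ribosomal RNA, 16 (38.1%) were lower at 1250 ppm than in the untreated wild type and none higher, where 4.66% of all genes were lower. Snord34, which overlaps the ribosomal protein gene Rpl13a, was at 0, 0.256, 0.0167 and 0 CPM at 1250 ppm and at 2.02, 2.04 and 2.00 CPM in the wild type (-4.73 ± 1.48, edgeR adjusted p = 0.0495). Its call was lost in 10 of 16 alternatives, among them GC correction (edgeR adjusted p = 0.0598). Gm24497, an snRNA entry, and Gm10222, a pseudogene, were at 0.267 to 1.14 and 0.231 to 0.640 CPM at 1250 ppm against 3.10 to 3.55 and 2.35 to 2.46 CPM. Their calls were lost in 8 and 4 of 17 alternatives, and both passed after GC correction.

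Immunoglobulin gene segments had a median log2 fold change of 1.37 over the 79 tested. By the edgeR adjusted p 1 was higher and none lower, a smaller share than the 6.76% and 4.66% of all genes.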
